A study of Prunus persica with 18 samples.

Results

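The net transcriptional change of basal buds of peach (Prunus persica) over the sampling period was measured by comparing 3 libraries collected at 79 days after full bloom (DAFB; T5) with 3 collected at 45 DAFB (T1), chosen by their labels out of 18 libraries in all. The 3 basal libraries of 58 DAFB (T3) were used to find out which share of each change was already present at that time, and the 9 apical libraries served for a comparison of position. All the trees were of the flat-nectarine cultivar Platinet 1, a single genotype. The shoots were untreated, and no gibberellin had been sprayed on them before sampling. Axillary buds near the base and near the tip of the shoot were excised separately. By the study's methods, the 3 libraries of each group were biological replicates, and each pooled the buds of several shoots. The experiment was carried out in a single season, so that the age of the buds and the sampling day cannot be told apart. The raw counts covered 26873 genes, identified by their PRUPE codes. Of these, 19304 passed the filter on low counts over the basal libraries and were tested.

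Peach flowers arise from axillary buds that leave vegetative growth in the season before bloom. In the model plant Arabidopsis, this floral transition is promoted by FT, a mobile protein related to TFL1, while TFL1 keeps the meristem indeterminate. SPL transcription factors act in the age pathway, and AP1 gives floral identity to the meristem. Gibberellins inhibit the transition in peach and in many fruit trees. The comparison asks how far the transcriptome of untreated basal buds moved between 45 and 79 DAFB, and when.

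The total counts of the basal libraries were between 25942355 and 33092786 at T1, 29767952 and 41727570 at T3, and 25801050 and 47286272 at T5, so that the depths overlapped. A chi-square comparison of the counts of each pair of replicates gave 6.31 to 18.3 per gene, above sampling noise for every pair, and each library was counted as a replicate. The highest value belonged to T5 replicates 1 and 3. Levels are given below as normalized counts, i.e. counts scaled by edgeR's TMM factors to the mean library size, and levels of different genes should not be compared, because they are not corrected for gene length. FDR is the p-value of edgeR's quasi-likelihood test adjusted by Benjamini-Hochberg over all the genes tested. DEGs are the genes that had both an FDR below 0.01 and a 2-fold or larger change. In whole buds, fewer cells of a type and less RNA per cell cannot be told apart. The only meristem genes that could be recognised were detected in every basal library, namely PpTFL1, PpCEN and, with 6 to 23 raw counts, PpAP1. No other marker of a tissue could be matched to the identifiers.

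Between T5 and T1, 3723 genes were DEGs. Of these, 1817 were higher at T5, 9.41% of the genes tested, and 1906 were lower at T5, 9.87% of them. The median log2 fold change, T5 over T1, was 1.57 for the genes that rose (quartiles 1.24 and 2.20) and -1.45 for the genes that fell (quartiles -1.91 and -1.19). At least 4-fold changes were found in 562 genes higher and 409 genes lower at T5, and at least 16-fold changes in 75 and 35. The T5 and T1 libraries did not overlap for 1815 of the risen and 1903 of the fallen DEGs. Over all the genes tested, the libraries did not overlap for 34.4% with higher values at T5 and for 37.2% with lower values at T5. Without the limit on the fold change, 10829 genes had an FDR below 0.01, of which 5165 were higher and 5664 lower at T5.

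The reads shifted from the fallen to the risen DEGs, which were 9.87% and 9.41% of the genes tested. Genes that rose received 18.4 to 20.6% of the counts of the T5 libraries, against 6.37 to 6.84% at T1. Genes that fell received 2.68 to 3.27% at T5, against 9.67 to 10.1% at T1. The T3 libraries lay close to T1 on both, with 7.50 to 7.83% on the risen genes and 8.91 to 9.40% on the fallen ones. Because the DEGs were chosen on the T5 and T1 libraries, these percentages are a description.

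**Figure D1:**
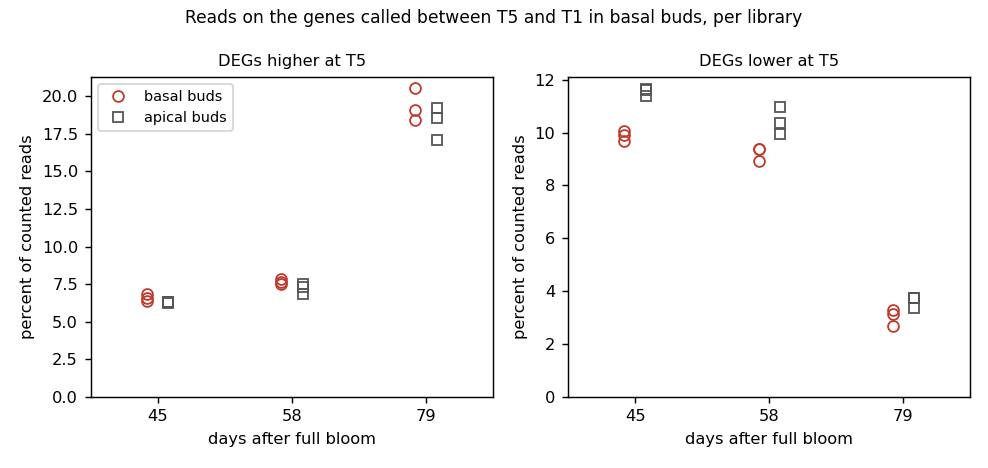
Percent of counted reads (y axis) on the DEGs higher at T5 (left panel) and lower at T5 (right panel), by days after full bloom (x axis), with 1 point per library for basal (circles) and apical (squares) buds. In basal libraries the risen genes took 6.37 to 6.84% at 45, 7.50 to 7.83% at 58 and 18.4 to 20.6% at 79 DAFB.

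The step from T1 to T3 was small and the step from T3 to T5 was large. Between T3 and T1, 179 genes were called, 0.927% of those tested, with 96 higher and 83 lower at T3. The count was 122 to 193 with each library left out, and the balance of directions moved, with 85 higher and 40 lower without T1 replicate 2, 83 and 47 without T3 replicate 3, and 70 and 52 without T1 replicate 3. Between T5 and T3, 3352 genes were called, 17.4% of those tested, with 1634 higher and 1718 lower at T5. The steps lasted 13 and 21 days. The median size of the log2 fold change over all the genes was 0.156 between T3 and T1, 0.416 between T5 and T3 and 0.445 between T5 and T1. Among the DEGs of the whole period, it was 0.299, 1.34 and 1.51 for the same steps.

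The share of the net change present at T3 was taken for each DEG as the log2 fold change of T3 over T1 divided by that of T5 over T1. A share of 0 means that T3 was still at the T1 level and a share of 1 that it had reached the T5 level. The median share over the 3723 DEGs was 0.131 (quartiles -0.0283 and 0.281). It was 0.132 for the genes that rose and 0.129 for those that fell. Taken from each T3 library in turn, the median was 0.120, 0.168 and 0.0950 for the risen genes and 0.115, 0.146 and 0.112 for the fallen ones. At T3, 38.2% of the days between T1 and T5 had passed. The share was below this for 1550 risen genes (85.3%) and 1627 fallen genes (85.4%). The T1 libraries enter both fold changes of the ratio and the DEGs were chosen on one of them, so that the share has no test.

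**Figure D2:**
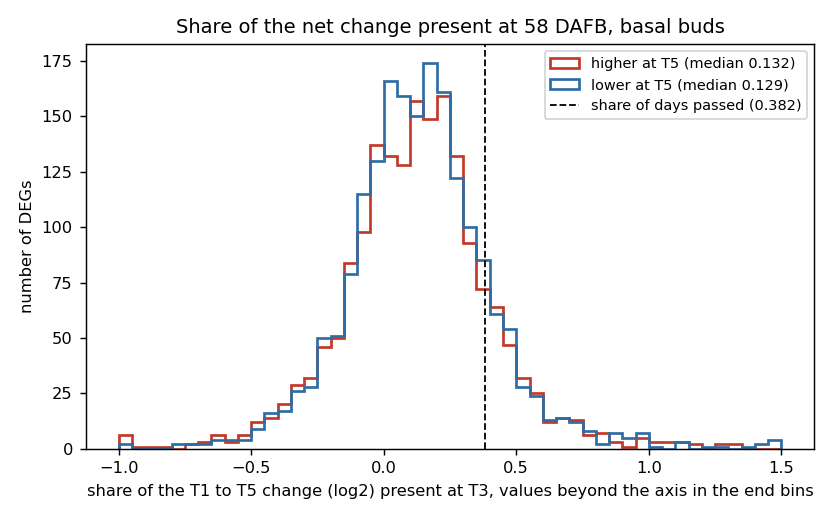
Number of DEGs (y axis) by the share of their T1 to T5 change in log2 that was present at T3 (x axis, bins of equal width, values beyond the axis in the end bins), for genes higher (red) and lower (blue) at T5. Both distributions peak near their medians of 0.132 and 0.129, left of the dashed line at the share of days passed, 0.382.

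Both directions had a similar spread of shares. Among the genes that rose, 551 had a share below 0, 725 a share between 0 and 0.25, and 408 a share between 0.25 and 0.5. Higher shares were less common, with 96 genes between 0.5 and 0.75, 22 between 0.75 and 1 and 15 above 1. Of the genes that fell, 541 were below 0, 810 between 0 and 0.25, 422 between 0.25 and 0.5, 91 between 0.5 and 0.75, 29 between 0.75 and 1 and 13 above 1. By the size of the net change, the median share of genes that rose was 0.133 where the log2 fold change lay between 1 and 2 (1255 genes), 0.129 between 2 and 3 (355 genes), 0.144 between 3 and 4 (132 genes) and 0.0878 above 4 (75 genes). For genes that fell it was 0.125, 0.156, 0.0833 and 0.163 over the same classes of size (1497, 305, 69 and 35 genes). As a share of the change in normalized counts, the median was 0.0649 for the risen and 0.199 for the fallen genes, since a given share in log2 is a smaller part of a linear rise and a larger part of a linear fall.

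Most DEGs were called in the second step alone. Of the DEGs that rose, 1335 were called between T5 and T3 only, 36 between T3 and T1 only and 23 in both steps in the same direction, while 420 were called in neither step. Of the DEGs that fell, 1339 were called between T5 and T3 only, 24 between T3 and T1 only and 15 in both, and 523 in neither. In 6 DEGs a change opposite to the net one was called between T3 and T1. With the FDR limit alone, 183 risen and 167 fallen genes had moved in the direction of the net change at T3, and 10 and 38 in the opposite one. The T1 libraries enter both fold changes, so that this agreement in direction is a description. The count over all the genes at this limit is not given here. At an FDR below 0.05, whatever the fold, 3234 of all the genes tested were called between T3 and T1.

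**Figure D3:**
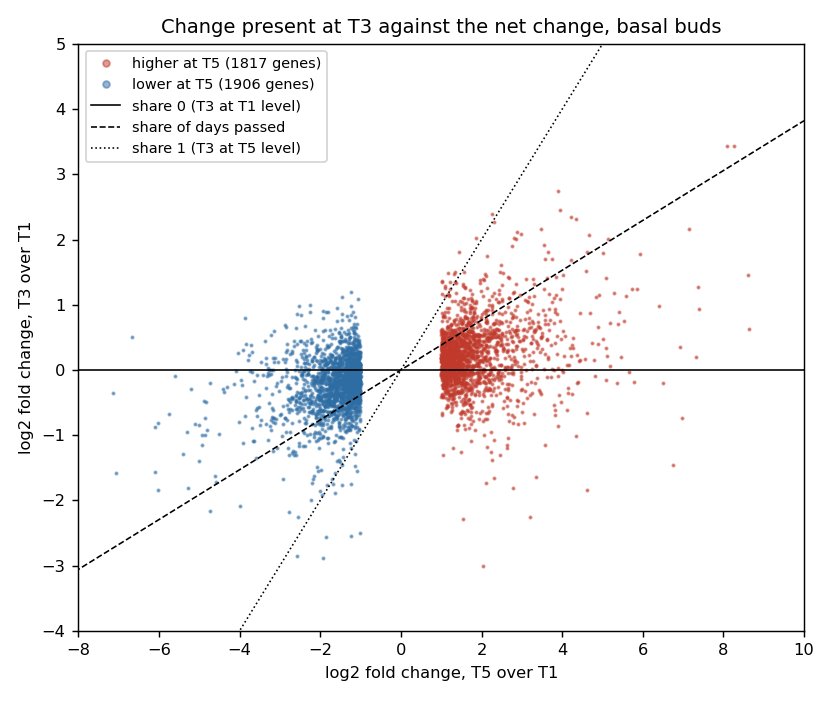
Log2 fold change of T3 over T1 (y axis) against that of T5 over T1 (x axis) for the 3723 DEGs of basal buds, 1 point per gene, red for the 1817 higher and blue for the 1906 lower at T5. Lines mark a share of 0 (solid), 0.382 (dashed, the share of days passed) and 1 (dotted). Most points lie between the solid and the dashed line or on the far side of the solid one.

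Whether a gene at T3 departed from an even course was tested as the distance in log2 between T3 and the point for 58 DAFB on the straight line between T1 and T5. At an FDR below 0.01, 3902 genes departed from the line, 20.2% of those tested, of which 2208 lay above and 1694 below it. Among the DEGs of the whole period, 1339 were behind the line, i.e. short of the point that the days passed would give, and 49 were ahead of it. The median share of the genes behind was -0.0360 (quartiles -0.161 and 0.0578), so that many of them lay beyond the T1 level, away from T5. As these genes were chosen on the T3 libraries, their share is a description. The genes behind were 617 of the risen (34.0%) and 722 of the fallen DEGs (37.9%), and the genes ahead 28 (1.54%) and 21 (1.10%). The remaining DEGs could not be told from the line. The count of genes behind was 886 with the spread estimated over all 18 libraries, 936 without T3 replicate 1 and 968 without T3 replicate 3, while the genes ahead were 35, 34 and 32 in the same fits.

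Among the 15 genes named by the study, 4 were called higher at T5, 6 were called lower and 5 were not called, of which 3 passed the FDR limit without reaching 2-fold. None of the called genes was ahead of the line, 6 were behind it and 4 could not be told from it. The genes for SPL9, gibberellin and redox functions were picked by the study among its own DEGs of these libraries. The cyclins, PpTPS9, PpTPS10, PpFT, PpTFL1 and PpCEN were taken from pathways that its pathway analysis of all the samples had pointed out. The changes of all these genes are therefore not independent evidence of a direction.

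PpSPL9.1 (PRUPE_6G256300), one of the SPL transcription factors, had 2988, 2631 and 3109 normalized counts in the T1 libraries, 2614, 2487 and 2865 in the T3 libraries and 824, 732 and 613 in the T5 libraries. The T5 libraries were well below the others, while T3 overlapped with T1. The log2 fold change was -2.00 for T5 over T1 (SE 0.10, FDR 2.79e-08) and -0.13 for T3 over T1 (FDR 0.396), which makes a share of 0.0655. PpSPL9.2 (PRUPE_7G074200) had 698, 694 and 782 normalized counts in the T1 libraries, 749, 713 and 762 in the T3 libraries and 295, 236 and 218 in the T5 libraries. T3 again overlapped with T1 and T5 lay apart, with a log2 fold change of -1.52 for T5 over T1 (SE 0.11, FDR 1.09e-07) and a share of -0.0221. Both SPL genes were behind the line at T3 (FDR 0.000221 and 0.000212).

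In the family of FT and TFL1, PpCEN fell, PpFT was higher at T5 without reaching 2-fold and PpTFL1 had no detectable net change. PpCEN (PRUPE_6G128400), related to the snapdragon gene that keeps the inflorescence meristem indeterminate, had 227, 233 and 251 normalized counts in the T1 libraries, 140, 126 and 161 in the T3 libraries and 64.3, 62.9 and 43.9 in the T5 libraries. Each group lay below the one before, with no overlap. The log2 fold change was -2.04 for T5 over T1 (SE 0.16, FDR 2.98e-07) and -0.73 for T3 over T1 (FDR 0.00522, below 0.01 in 4 of the 9 fits with a library left out). The share of 0.359 did not depart from the line (FDR 0.810). PpTFL1 (PRUPE_7G112600) had 330, 383 and 320 normalized counts in the T1 libraries, 619, 657 and 558 in the T3 libraries and 369, 311 and 239 in the T5 libraries. T3 was highest and T5 overlapped with T1. The net log2 fold change was -0.16 (SE 0.14, FDR 0.341), the outcome of 0.82 for T3 over T1 (FDR 0.00217, below 0.01 in 6 of the 9 fits with a library left out) and -0.98 for T5 over T3 (FDR 5.22e-05), and a share has no meaning for it.

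PpFT (PRUPE_6G364900) averaged 122 ± 34.1 (T1), 141 ± 34.2 (T3) and 236 ± 35.7 (T5) normalized counts (SD, n = 3 each). The T5 libraries, with 241, 268 and 197, were all above the T1 libraries, with 161, 104 and 99.7, while T3 overlapped with T1. The log2 fold change of T5 over T1 was 0.96 (SE 0.22, FDR 0.00203), just short of 2-fold. It reached 1.202 without T1 replicate 1 and 1.07 without T5 replicate 3, while the FDR passed 0.01 without T1 replicate 2 or 3 (up to 0.0123). The share over the T3 libraries was 0.223 ± 0.369 (SD, n = 3), with an SD larger than the mean. PpAP1 (PRUPE_1G290600) had 16.7, 13.5 and 16.8 normalized counts in the T1 libraries, 10.9, 5.59 and 18.1 in the T3 libraries and 7.94, 23.7 and 8.53 in the T5 libraries. The groups overlapped, and with 6 to 23 raw counts per library a difference between T5 and T1 was not detectable at this depth (log2 fold change -0.33, SE 0.49, FDR 0.571).

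Both cyclins fell, and at T3 they lay between T1 and T5. PpCYCB1.2 (PRUPE_6G021200), a B1-type cyclin of dividing cells, had 384, 332 and 300 normalized counts in the T1 libraries, 191, 187 and 195 in the T3 libraries and 132, 65.6 and 73.1 in the T5 libraries. The groups did not overlap, and the log2 fold change of T5 over T1 was -1.84 (SE 0.21, FDR 1.14e-05). PpCYCB1.4 (PRUPE_4G269600) averaged 245 ± 43.0 (T1), 148 ± 11.8 (T3) and 79.7 ± 31.5 (T5) normalized counts (SD, n = 3 each), with a net log2 fold change of -1.57 (SE 0.24, FDR 0.000117). The shares at T3 were 0.446 and 0.462, and neither gene could be told from the line (FDR 0.644 and 0.664). The step from T1 to T3 itself missed the FDR limit for both, with log2 fold changes of -0.82 (FDR 0.0156) and -0.73 (FDR 0.0453) for T3 over T1.

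**Figure D4:**
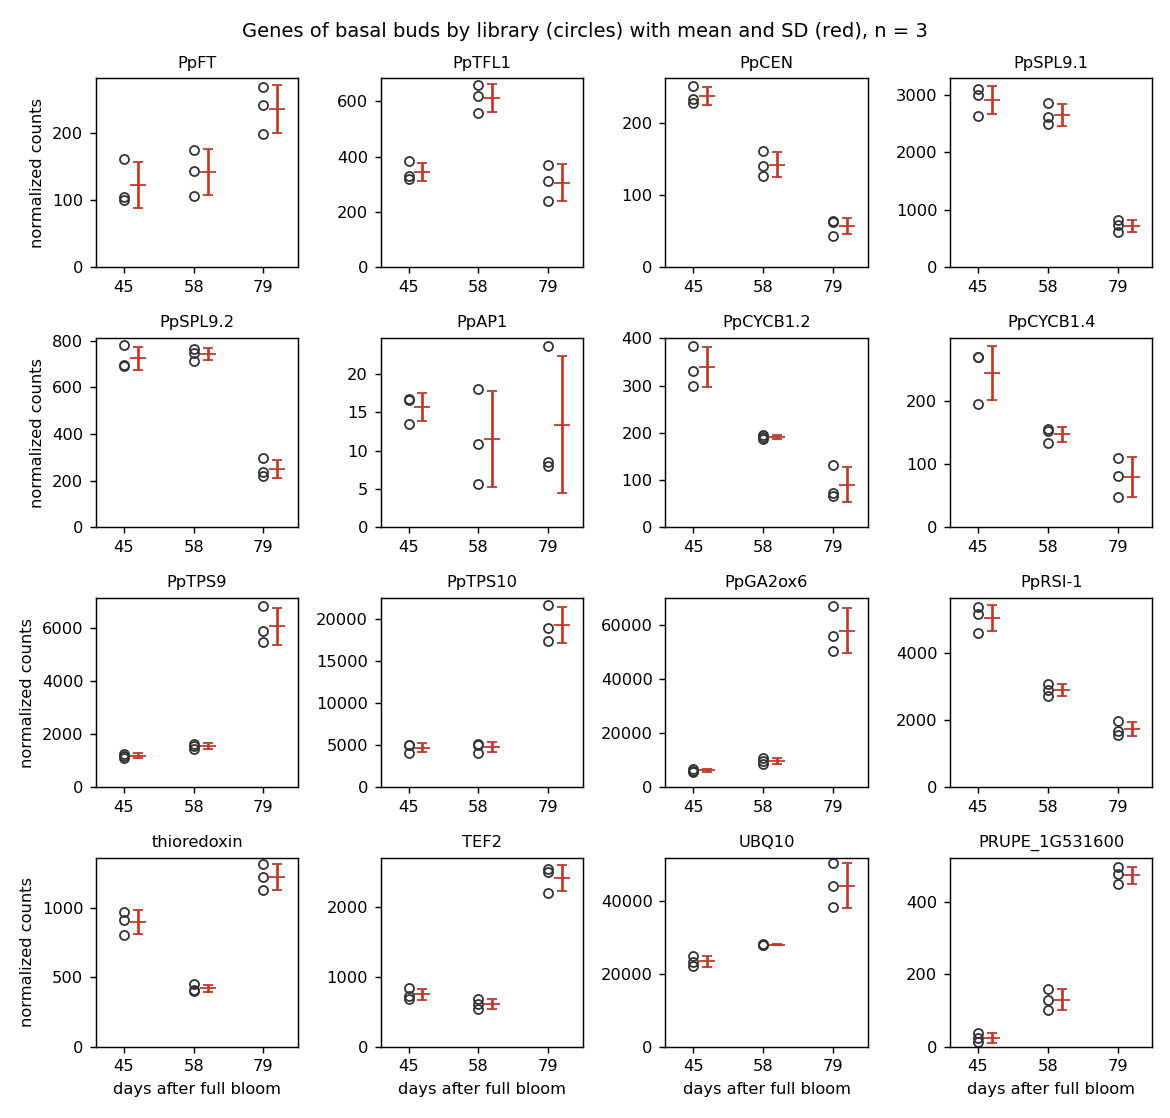
Normalized counts (y axis, linear from 0, a scale per panel) of the 15 genes named by the study and of PRUPE_1G531600 in basal buds, by days after full bloom (x axis), with circles for the 3 libraries of each time and red bars for the mean and SD. PpSPL9.1, PpSPL9.2, PpTPS9, PpTPS10, PpGA2ox6 and TEF2 lay nearer to their T1 than to their T5 level at 58 DAFB, whereas PpCEN, the cyclins and PpRSI-1 were at intermediate levels.

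Both trehalose phosphate synthase genes, named for the enzyme that makes the sugar signal trehalose 6-phosphate, rose mostly after T3. PpTPS9 (PRUPE_5G176400) had 1077, 1183 and 1255 normalized counts in the T1 libraries, 1430, 1634 and 1543 in the T3 libraries and 5443, 5864 and 6821 in the T5 libraries. The T5 libraries stood far above the others, with a log2 fold change of 2.36 over T1 (SE 0.09, FDR 1.72e-09). All the T3 libraries also lay above the T1 libraries, with a log2 fold change of 0.39 that missed the FDR limit (FDR 0.0121). The share at T3 was 0.165. PpTPS10 (PRUPE_1G256200) had 4064, 4995 and 5015 normalized counts in the T1 libraries, 5050, 5098 and 4086 in the T3 libraries and 17404, 18922 and 21600 in the T5 libraries. T3 overlapped with T1, and the net log2 fold change of 2.04 (SE 0.12, FDR 5.34e-08) came with a share of 0.00754. Both were behind the line (FDR 0.000415 and 0.000212).

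The gibberellin genes moved in opposite directions. PpGA2ox6 (PRUPE_4G150200), a gibberellin 2-oxidase of the class that inactivates gibberellins, had 5668, 6084 and 6657 normalized counts in the T1 libraries, 10906, 9610 and 8627 in the T3 libraries and 50540, 56107 and 66948 in the T5 libraries. All the groups were apart. Its log2 fold change of 3.24 for T5 over T1 (SE 0.12, FDR 1.72e-09) corresponded to a 9.43-fold rise, and 0.66 for T3 over T1 (FDR 0.00269, below 0.01 in 6 of the 9 such fits) to a share of 0.205, behind the line (FDR 0.00111). PpRSI-1 (PRUPE_3G161500), a gibberellin-regulated protein of the GASA family, had 5373, 5175 and 4607 normalized counts in the T1 libraries, 3086, 2727 and 2899 in the T3 libraries and 1962, 1666 and 1566 in the T5 libraries. Its groups were also apart. The net log2 fold change was -1.54 (SE 0.09, FDR 2.93e-08), and with -0.80 for T3 over T1 (FDR 0.000201) it had the highest share of the called genes the study names, 0.519, not past the limit for a departure from the line (FDR 0.0504).

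The thioredoxin gene PRUPE_1G410500, whose product acts in redox regulation, went down before it went up. It had 803, 973 and 916 normalized counts in the T1 libraries, 452, 401 and 411 in the T3 libraries and 1223, 1313 and 1126 in the T5 libraries, with no overlap among the groups. The log2 fold change was -1.09 for T3 over T1 (FDR 5.77e-05), 1.54 for T5 over T3 (FDR 2.82e-08) and 0.44 net (SE 0.09, FDR 0.000560), below 2-fold. As for PpTFL1, most of its movement is not seen in the net change.

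The genes used as references for qPCR changed as well. TEF2 (PRUPE_4G138900), a translation elongation factor, had 735, 840 and 684 normalized counts in the T1 libraries, 544, 618 and 682 in the T3 libraries and 2203, 2542 and 2505 in the T5 libraries. The T5 libraries were 3.20-fold higher than T1, with a log2 fold change of 1.68 (SE 0.10, FDR 2.93e-08) and a share of -0.173. UBQ10 (PRUPE_4G204900), a polyubiquitin gene, averaged 23484 ± 1471 (T1), 28000 ± 171 (T3) and 44257 ± 6066 (T5) normalized counts (SD, n = 3 each). Its net log2 fold change was 0.91 (SE 0.09, FDR 3.00e-06), 1.88-fold, which passed 2-fold without T5 replicate 1 (1.01), and its share 0.278 did not depart from the line (FDR 0.400).

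The DEGs with the largest changes could not be named. Limited to genes with a mean of 100 or more normalized counts in T5 or T1 buds and no overlap between the libraries of these days, the largest rise was PRUPE_8G238700, with 0, 0.97 and 0 normalized counts in the T1 libraries, 0, 0.93 and 0.79 in the T3 libraries and 141, 191 and 243 in the T5 libraries. Every T1 and T3 library had at most 3 counts, and no change was detectable between T3 and T1 (FDR 0.807). With 531 reads at T5 and 1 read at T1, the ratio of the depth-corrected sums was 513 (95% exact interval 91.8 to 20318, counting error only). The largest fall was PRUPE_4G172000, with 93.0, 99.6 and 111 normalized counts in the T1 libraries, 43.7, 43.8 and 17.3 in the T3 libraries and 2.17, 0 and 1.22 in the T5 libraries. The log2 fold change was -1.56 for T3 over T1 (FDR 0.00486, above 0.01 in 4 of the 9 fits with a library left out) and -4.53 for T5 over T3 (FDR 2.65e-05). Its 4 reads at T5, against 287 at T1, gave a ratio of T1 over T5 of 74.2 (95% exact interval 28.7 to 274, counting error only).

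A share of 0.5 or more was found in 133 genes that rose and 133 that fell. Of these, 41 and 28 were also DEGs between T3 and T1, and 67 and 60 passed the FDR limit of that step. The share is itself taken from that step, so that these counts are a description. Among the genes with a share of at most 1 that met the same conditions of no overlap and level, the largest rise was PRUPE_1G531600, with 11.9, 24.2 and 38.8 normalized counts in the T1 libraries, 160, 130 and 102 in the T3 libraries and 496, 478 and 450 in the T5 libraries. The groups were apart, and the log2 fold change was 4.22 for T5 over T1 (SE 0.26, FDR 1.08e-07) and 2.35 for T3 over T1 (FDR 0.000450), a share of 0.556. Its departure from the line was not called (FDR 0.0263). The largest fall was PRUPE_6G166000, with 207, 165 and 213 normalized counts in the T1 libraries, 46.9, 57.8 and 76.9 in the T3 libraries and 31.0, 8.38 and 34.1 in the T5 libraries. Its log2 fold change was -2.92 for T5 over T1 (SE 0.31, FDR 6.89e-06) and -1.67 for T3 over T1 (FDR 0.00240), a share of 0.573, and the FDR of the first step exceeded 0.01 in 4 of the 9 fits with a library left out. Both genes were chosen for their share, which is therefore a description.

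The shares of single genes depended on the scale. As a share of the change in normalized counts, the value at T3 was 0.235 for PRUPE_1G531600, 0.0747 for PpTPS9 and 0.0692 for PpGA2ox6, lower than in log2. It was 0.526 for PpCEN, 0.593 for PpCYCB1.2, 0.588 for PpCYCB1.4, 0.647 for PpRSI-1, 0.663 for PRUPE_4G172000 and 0.789 for PRUPE_6G166000, higher than in log2. For PpSPL9.1 it was 0.116 and for PpTPS10 0.00365. The test against the line was made in log2 only.

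Apical buds of the same days, fitted together with the basal ones over 19754 genes, changed in the same direction for most of these genes. Of the 3723 DEGs of basal buds, 3607 had the same sign in apical buds and 2751 (73.9%) were called there in the direction of their basal change, against 4333 (22.4%) of all the genes tested. Called in the opposite direction were 12 of the genes that rose and 6 of those that fell. For the same sign and for the opposite calls, the counts over all the genes tested are not given here, so that these counts are a description. The median apical log2 fold change was 1.52 for the genes that rose in basal buds and -1.57 for those that fell. In apical buds the median share at T3 was 0.120 over the 2751 genes, and 0.103 without T3 apical replicate 1, a choice made after seeing the data. The apical libraries had no part in choosing the genes behind the line in basal buds. In apical buds, a gene was counted as behind or ahead of the line only if it was also called there between T5 and T1. Of those 1339 genes, 568 (42.4%) were behind there and none ahead. The genes behind were 1021 (27.4%) among all the DEGs of basal buds and 1466 (7.59%) among all the genes tested. Calls in apical buds in the basal direction were themselves unequal, at 81.6%, 73.9% and 22.4% of these groups, so the percentages do not measure timing alone. Of the 49 genes ahead in basal buds, 27 were called in the same direction in apical buds, with a median apical share of 0.535, and 6 (12.2%) were ahead there, against 11 (0.295%) of the DEGs and 25 (0.130%) of all the genes tested.

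The net change differed between basal and apical buds for 365 genes, 1.85% of those tested, with an FDR below 0.01 and a difference of at least 2-fold. It was more positive in basal buds for 224 of them and more negative for 141. With the libraries of both positions blocked by time point and replicate number, which pairs the same shoots only if the numbers follow the shoots, 238 genes were called. The count fell to 184 without T1 apical replicate 2, to 194 without T1 basal replicate 3 or T5 basal replicate 1, to 217 without T1 apical replicate 1 and to 234 without T1 apical replicate 3. Without T5 apical replicate 1, 178 were more positive and 224 more negative in basal buds. Of the 365, 130 were DEGs of basal buds, 81 of the risen and 49 of the fallen ones. None of the 15 genes named by the study was among them. PpCEN came closest, with a net log2 fold change of -0.43 in apical buds, a difference of -1.61 (SE 0.37, FDR 0.0127). For PpAP1 the apical log2 fold change was 1.28 (FDR 0.00895), which passed both limits there. Its raw counts in apical buds were 9, 17 and 14 at T1 and 37, 36 and 21 at T5. The difference between positions, -1.60 (SE 0.58, FDR 0.101), was not called. PpFT also passed both limits in apical buds (1.19, FDR 0.000133), with a difference of -0.23 (FDR 0.708). Of the 10 genes the study names that were called in basal buds, all but PpCEN were also called in apical buds in the same direction. The cyclins had net log2 fold changes of -2.75 (PpCYCB1.2) and -2.16 (PpCYCB1.4) in apical buds, where both were behind the line at T3 (FDR 0.00229 and 0.00261), a departure that was not called in basal buds. Whether the timing differed between positions was not tested.

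**Figure D5:**
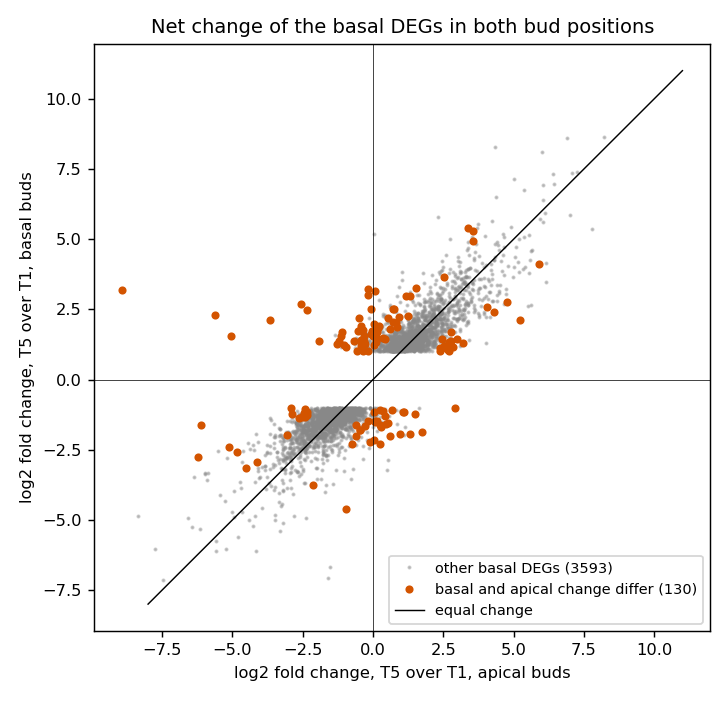
Log2 fold change of T5 over T1 in basal (y axis) against apical buds (x axis) for the 3723 DEGs of basal buds, 1 point per gene, with the line of equal change. Orange points mark the 130 DEGs whose change differed between the positions, and most of the other points lie along the line.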

How the data were processed

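RNA of basal and apical buds was sequenced by the authors from TruSeq Stranded mRNA libraries on an Illumina NextSeq instrument. Per the labels and the study's methods, reads were checked with FastQC, aligned with HISAT2 to the peach genome v2.0.a1 and counted per gene model with HTSeq. They deposited raw counts, unnormalized and with 1 column per replicate. The counting mode and strand setting are not given in the sources used here, so overlapping or near-identical genes are uncertain. Columns were assigned by time, position and replicate in their names.

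Counts were tested with edgeR 4.0.16 in R 4.3.3 (TMM, the package's low-count filter, robust quasi-likelihood fit of the 9 basal libraries). The limits were an FDR of 0.01 and 2-fold, and the line test had no fold limit. The SE is the log2 fold change divided by the square root of F. Apical values came from a fit of all 18 libraries. The study tested with DESeq2, used here as an alternative (version 1.42.0). Other alternatives were median-of-ratios scaling, no filter, other limits, a replicate block, other sets of libraries and each library left out. The scripts were tested on simulated data.

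By the study's methods both positions came from the same shoots, but no source used here says that the replicate numbers follow them. Same-numbered libraries of both positions deviated with r of 0.0890, 0.0664 and 0.0209 at T1, -0.0325, 0.0710 and -0.0666 at T3, and 0.177, 0.0205 and -0.0657 at T5, where basal replicate 3 and apical replicate 2 reached 0.176, so that the data do not show the pairing. An exact permutation test of 3 libraries against 3 (two-sided) cannot give a p below 0.1.

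The named genes were every gene that the study names by identifier, and the largest rise and fall among DEGs without overlap that averaged at least 100 normalized counts in the higher group, over all such DEGs and over those with a share of 0.5 to 1. The comparison, genes and tests were chosen with earlier results of these data known. Because 0 identifiers matched the gene table at hand, lists by function, tissue markers and sequences were not used here. Figures were drawn with matplotlib 3.10.9.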

Additional observations from a re-analysis of the deposited data

Results flagged for a closer look

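The change from T1 to T5 was compared between basal and apical buds with a test of the difference itself, and 365 genes passed the limits for it. This count was singled out because the same interval gave different changes at the 2 positions. None of the genes that the study names was among the 365.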

How the results depend on the processing

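The count of 3723 DEGs between T5 and T1 was 3738 with DESeq2, of which 3635 were shared, 3713 with median-of-ratios scaling and 3437 to 3812 with each library left out. It was 13009 where an FDR below 0.05 was enough whatever the fold, and 1681 when tested against a 2-fold change. Against 1817 higher and 1906 lower at T5, the split was 1884 and 1854 with DESeq2, and 1877 and 1836 with median-of-ratios scaling. It was 913 and 768 when tested against a 2-fold change, 1864 and 1969 with no filter, and 1785 and 1894 with the replicate block. Which direction held more DEGs thus depended on the processing. With an FDR below 0.05 and no limit on the fold change, 3234 genes were called between T3 and T1 and 12584 between T5 and T3. In the same way, 6521 were called off the line and 1699 for the difference between positions. Genes off the line were 1829 with all 18 libraries in the fit, and 2396 to 4198 with each library left out, with the lowest counts without T3 basal replicate 1 (2396) or 3 (2474). The difference between positions gave 701 genes with DESeq2, 238 with the replicate block, and 184 to 402 with each library left out. The median share of 0.131 stayed between 0.111 and 0.145 with each library left out. As an alternative chosen after seeing the data, the DEGs behind the line were counted in each fit, and were 936 to 1533 with each library left out, with 31 to 52 ahead.

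Across time points, same-numbered basal libraries did not deviate together (r from -0.134 to 0.0808), and the replicate block gave 3679 DEGs between T5 and T1. Named-gene values took another sign in 13 cases, counting each value in each alternative fit, and none of these passed the FDR limit. With a library left out, PpTPS10 changed sign between T3 and T1 (-0.0771 to 0.111, all values in log2). PpAP1 did so between T5 and T1 (-0.923 to 0.0157), between T5 and T3 (-0.523 to 0.609) and off the line (-0.813 to 0.0560). The distance from the line also changed sign for PpFT (-0.336 to 0.0270), PpCEN (-0.0577 to 0.130), PpCYCB1.2 (-0.180 to 0.0508) and PpCYCB1.4 (-0.223 to 0.0152). The 3 replicates per group and, for PpAP1, the depth limit the precision. With the replicate number as a block, the FDR of T3 against T1 was 0.0116 for PpCEN and 0.0037 for PpTPS9, on the other side of 0.01 from 0.00522 and 0.0121 without it.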
